A study of Saccharomyces cerevisiae with 39 samples.

Results

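The effect of a resupplied m6A reader was examined by setting diploid budding yeast in which intact Pho92 was expressed from a copper-induced copy (CUP1_Pho92_WT, called the induced strain) against diploids without the gene (Pho92_delete, called the deletion strain). The 3 libraries of each strain were taken by their titles from the 39 of the series, 6 of 39 in all, and were paired by the replicate number in those titles. The series holds 13 strains with 3 libraries each and asks which parts of Pho92 are needed for m6A-dependent turnover of mRNA. RNA was poly(A)-selected and sequenced from directional libraries. Cells were moved from rich acetate medium to sporulation medium, and by the protocol every strain received 50 µM copper sulphate 3 h after that. The labels give no collection time, and they mention an arrest early in meiosis without listing an arrest allele.

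All groups shared a MATa/alpha genotype with ho::LYS2, lys2 and ura3, together with leu2::hisG, with his3::hisG and with trp1::hisG. Pho92_delete also carried pho92::HYG. CUP1_Pho92_WT was listed with hyg::pho92 and with Trp1::CUP1-HA-PHO92-WT, an HA-tagged copy behind the promoter of a metallothionein gene that copper activates, so level and timing of the protein differ by construction from those of the native gene. WT, with native PHO92 and none of these alleles, and CUP1_Pho92_W177A, with the same copy changed at 1 tryptophan of the YTH domain, were used where a level in the induced strain had to be placed. Whether the 3 libraries of a strain come from separate cultures or clones is not stated, so the p-values measure the spread between libraries only.

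Pho92 is the YTH-domain protein of Saccharomyces cerevisiae. It binds N6-methyladenosine (m6A), which a writer complex built around Ime4, Mum2 and Slz1 places on mRNAs early in meiosis, and it has been linked to the CCR4-NOT deadenylase and to decay of marked mRNAs. Later stages of sporulation depend on the transcription factor Ndt80, which activates genes of the meiotic divisions and of spore formation through a promoter element named the middle sporulation element (MSE), a site that the repressor Sum1 can occupy with Hst1 and Rfm1.

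Totals of the 6 libraries lay between 18620222 and 21116570 counts, within the range of 15928411 to 37186964 of the series. Replicates of a strain differed beyond counting noise, by 125 to 439 chi-square units per degree of freedom. The first principal component of the 6 libraries held 75.2% of the variance and placed the induced libraries at -46.2, -36.2 and -7.06 and the deletion libraries at 9.7, 38.3 and 41.5. Pho92_delete replicate 2 stood apart on the second component (9.96% of the variance) at 21.5, where the other 5 lay between -11.9 and 11.8, and results that rest on it are given with and without it. Of 8 markers of haploid cells 7 were in the table and none was at 0. Their summed level was 149 to 294 CPM (counts scaled to 1000000 per library) in the induced and 101 to 164 CPM in the deletion strain. Markers of proliferating cells summed to 270 to 343 and 243 to 313 CPM. Early meiotic markers were abundant in both strains, at 16894 to 20282 and 13104 to 19622 CPM, and middle meiotic markers summed to 4356 to 22322 CPM against 509 to 3490 CPM.

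The deleted gene itself was read first. PHO92 (YDR374C) had 20, 45 and 2 counts in the deletion libraries, and 8197, 9805 and 11234 CPM in the induced libraries, where WT had 1054, 957 and 802 CPM. Every induced library lay above every WT library, and the log2 difference was 3.37 (SE 0.43) with a limma adjusted p of 2.04e-05. Neither neighbour of the locus was called: BCS1 differed by a log2 of -0.13 and FRQ1 by -0.35 (limma adjusted p = 0.557 and 0.0612), and FRQ1 passed the threshold without CUP1_Pho92_WT replicate 3 (0.00904) or Pho92_delete replicate 3 (0.0411). TRP1 (YDR007W), at whose locus the copy was placed, had 165, 105 and 200 counts in the induced and 646, 447 and 621 counts in the deletion libraries, without overlap (log2 -1.74, limma adjusted p = 1.16e-08). CUP1_Pho92_W177A, with the changed copy, had 532, 509 and 550 counts, and WT had 343, 335 and 502. The cause of the lower counts in the induced strain was not tested.

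Strains with induced Pho92 and without Pho92 differed across much of the transcriptome. A gene was called when its limma adjusted p was under 0.05 in a fit of all 39 libraries with the replicate number as a block. Of 5840 genes tested, 2854 were called (48.9%), with 1393 higher in the induced strain (23.9%) and 1461 lower (25.0%). The median log2 of all genes tested was -0.03. At least 2-fold differences were found for 395 genes that rose and 326 that fell. In 2536 genes (43.4%) the 3 induced and the 3 deletion libraries did not overlap. Counts of list members below are to be read against these shares. A fit of these 6 libraries alone called 1187 genes, 622 higher and 565 lower.

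Several of the greatest rises belonged to genes of spore formation. SMK1 (YPR054W), the meiotic MAP kinase that governs spore wall assembly, had 1165, 670 and 219 CPM in the induced libraries and 122, 34 and 5.97 CPM in the deletion libraries. Replicate 3 was lowest in both strains, and the lowest induced library still lay above the highest deletion library. Its log2 was 4.24 (SE 0.64, limma adjusted p = 7.84e-06). SPR2 (YOR214C), a spore wall protein, had 3720, 1439 and 371 CPM against 264, 118 and 7.67 CPM, and SMA2 (YML066C), needed for prospore membrane assembly, had 463, 207 and 56.7 CPM against 42.7, 11.7 and 1.93 CPM. Both showed the same order of libraries and no overlap, with log2 values of 4.33 (SE 0.79) and 4.12 (SE 0.65) and limma adjusted p of 6.96e-05 and 1.23e-05. The 12 greatest rises, between a log2 of 3.93 and 4.94, were led by SRD1 and YPR078C, to which no spore role is given here, and also took in GAT4, SPS2, RRT12, PFS1, YFL040W, YNL019C and YKR015C. SPS2 acts in the spore wall, RRT12 in the formation of its dityrosine layer, and GAT4 is a GATA-type zinc finger protein of spore wall assembly. Leaving out Pho92_delete replicate 3 lowered SRD1 to 4.04 and SPR2 to 3.73 (limma adjusted p = 0.00465 and 0.00127), and leaving out CUP1_Pho92_WT replicate 1 lowered GAT4 to 3.45 (0.0174). Leaving out Pho92_delete replicate 1 raised SMK1, SMA2 and SPS2 to 4.86, 4.71 and 4.66. Without the replicate block all 12 were still called, with limma adjusted p of 0.00358 to 0.0385.

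The MSE is shown because 8 of the 12 greatest rises hold it, and the windows of NDT80 and CDC5 are added from 4 division genes searched, of which CLB1 and CLB3 held no match. The 300 bases upstream of each gene's annotated start, in the RefSeq R64 assembly of S. cerevisiae S288C, were searched on both strands for GNCACAAAA, GNCACAAAT, GNCGCAAAA and GNCGCAAAT. The windows below read 5′ to 3′ in the direction of the gene, with the match in capitals, and an element on the opposite strand therefore appears as its complement.
YPR078C, chrXVI:698443-698471, minus strand: tcattttgatGTCACAAAAaagtaatact
SPR2, chrXV:746531-746559, minus strand: gtggctacgtTTTTGTGTCccatggcaac
SMK1, chrXVI:666190-666218, plus strand: ggcgccactaATTTGTGACacttgaacag
GAT4, chrIX:380532-380560, minus strand: gtgtcaagatTTTTGTGCCatggaaaggg
SMA2, chrXIII:141679-141707, minus strand: gagaacatttTTTTGTGTCatcttagggg
SPS2, chrIV:1485316-1485344, minus strand: aaaaaaaataTTTTGTGGCattacttaga
RRT12, chrIII:209713-209741, minus strand: taaaaaaaacGACACAAAAtattgttctc
YFL040W, chrVI:51222-51250, plus strand: agccaagaacGTCACAAAAaaaggatgaa
NDT80, chrVIII:356465-356493, plus strand: ttgccctccaTTTTGTGTCacctatttaa
CDC5, chrXIII:271368-271396, minus strand: catccttcaaTTTTGTGGCatatactaca
SPR2 and NDT80 held 2 matches each, of which 1 is shown. The match closest to a start was that of SPS2, 23 bases upstream, and the farthest that of CDC5, 242 bases upstream.

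These letters were found in 5.32% of all 6020 promoters and in 4.64% of the promoters of genes tested. They were found in 8 of the 12 greatest rises, in 10.4% of genes called higher, and in 25.9% of those called higher by at least 2-fold, against 1.96% of genes called lower. Among the gene lists described below the share was 50% for prospore membrane genes, 44.8% for spore wall genes and 31.8% for regulators of the meiotic divisions. A match of letters is a description of these windows and not of occupancy. SRD1, PFS1, YNL019C and YKR015C held none in the window.

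Whole groups of late sporulation genes rose together. Of 29 spore wall genes tested, 24 were called higher and 1 lower, with a median log2 of 3.13. Next to SPR2 and SPS2 stood SPO19, a GPI-anchored protein, DTR1, the dityrosine transporter, and LOH1, with log2 values of 3.80, 3.74 and 3.73 (limma adjusted p of 4.12e-05, 4.43e-06 and 3.44e-05). DTR1 had 2914, 1674 and 518 CPM in the induced and 314, 109 and 31 CPM in the deletion libraries, without overlap. The member called lower was SPS100, a late spore wall gene (log2 -0.43, limma adjusted p = 0.0277, and 0.0665 without the block), and it lost the call when any of CUP1_Pho92_WT replicates 2 and 3 and Pho92_delete replicate 3 was left out. It shares bases with an annotated gene. Of 18 genes of the prospore membrane and of the meiotic outer plaque on which it grows, 17 were called higher and none lower, with a median log2 of 2.79. SPO21 (YOL091W), a subunit of that plaque, had 978, 754 and 245 CPM against 138, 57.5 and 21.2 CPM, a log2 of 3.35 (SE 0.41, limma adjusted p = 3.89e-07). SPO77 and SMA1, both needed to close or shape the membrane, had log2 values of 3.31 and 3.30.

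**Figure D1:**
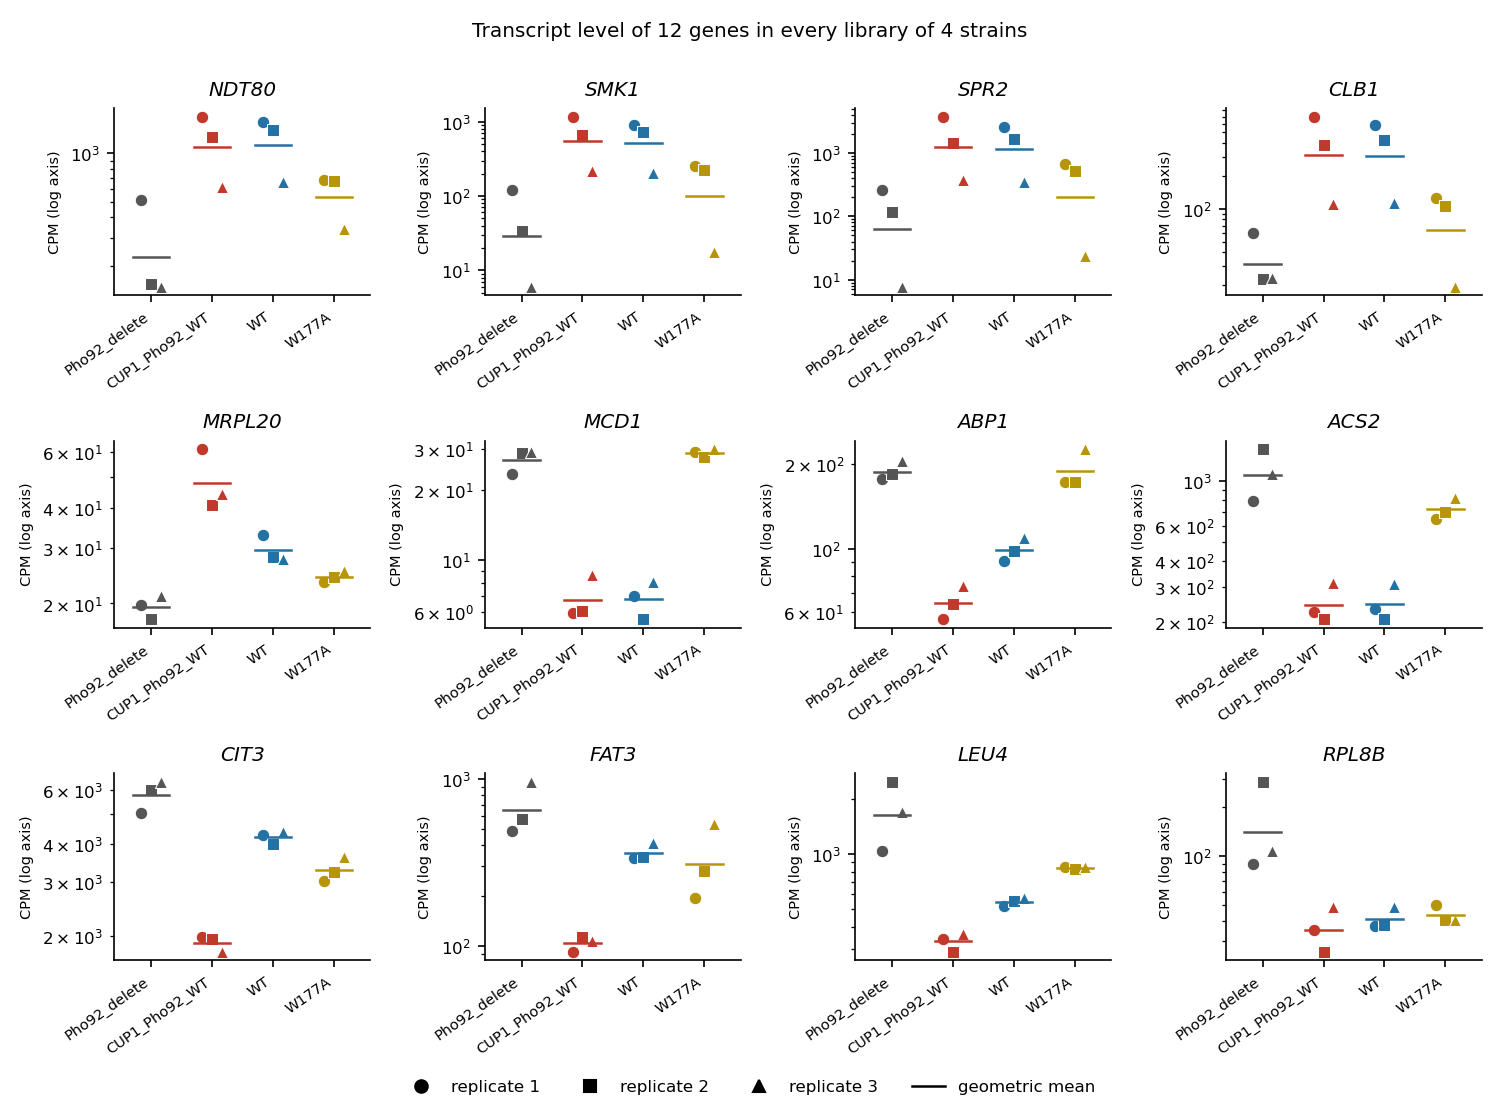
CPM on a log axis for 12 genes in each of the 3 libraries of Pho92_delete, CUP1_Pho92_WT, WT and CUP1_Pho92_W177A (marked W177A). Marker shape gives the replicate number and lines give geometric means. The means of NDT80, SMK1, SPR2, CLB1 and MRPL20 are lowest in the deletion strain, and those of ACS2, CIT3, FAT3, LEU4 and RPL8B are highest there, while MCD1 and ABP1 are high in both the deletion strain and W177A.

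The regulators of the divisions followed. NDT80 (YHR124W) had 1689, 1270 and 621 CPM in the induced libraries and 514, 154 and 148 CPM in the deletion libraries. The lowest induced library was above the highest deletion library, and the log2 was 2.28 (SE 0.48, limma adjusted p = 0.000346). HST1, the histone deacetylase partner of Sum1, rose by a log2 of 1.37 and RFM1, which joins Hst1 to Sum1, by 0.52 (limma adjusted p = 1.51e-06 and 0.000363). SUM1 itself had 77, 85.2 and 84.8 CPM against 84.1, 87.5 and 103 CPM and was not called (log2 -0.15, limma adjusted p = 0.418).

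Of 22 genes listed as regulators of the meiotic divisions, 19 were called higher and 2 lower, with a median log2 of 1.71. The list also holds genes of spore formation, among them SMK1, SPS1 and SSP1. The B-type cyclin CLB1 (YGR108W) had 697, 384 and 112 CPM against 59.7, 22.8 and 23.2 CPM, a log2 of 3.29 (SE 0.58, limma adjusted p = 4.14e-05). The polo kinase gene CDC5 rose by a log2 of 2.42 and the cyclin gene CLB3 by 1.45 (limma adjusted p = 2.35e-05 and 0.000521). SPS1, a kinase of spore formation, SSP1, a coat protein of the prospore membrane rim, and the cyclin gene CLB6 rose by log2 values of 3.40, 3.00 and 2.99. The members that fell were SIC1, an inhibitor of cyclin-dependent kinase (log2 -0.45, limma adjusted p = 0.000755), and SWE1, the kinase that inhibits it by phosphorylation (log2 -0.41, limma adjusted p = 0.0126, 0.0524 without the block and 0.0861 without Pho92_delete replicate 3). In RNA from whole cultures, fewer cells at a stage and less RNA per cell cannot be told apart.

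Against WT none of the spore wall, prospore membrane or division genes was called. The median log2 of the induced strain over WT was 0.08 for spore wall genes, -0.02 for prospore membrane genes and 0.03 for division regulators, and SMK1, NDT80 and CLB1 differed from WT by 0.12, -0.04 and 0.02 (limma adjusted p of 0.987, 0.995 and 0.997). A p above the threshold does not show equal levels. Against W177A, 21 of the 29 spore wall genes, 16 of the 18 prospore membrane genes and 16 of the 22 division regulators were higher in the induced strain. The mean log2 level of the spore wall list over the mean of the deletion strain was 3.35, 2.70 and 1.46 in the induced libraries, 3.08, 2.85 and 1.45 in WT, 1.85, 1.70 and -0.36 in W177A and 1.18, -0.01 and -1.17 in the deletion libraries. Replicate 3 was the lowest in each of these strains. NDT80 was not called against W177A (log2 1.03, limma adjusted p = 0.099). Across all genes 198 were called against WT (3.39%) and 1907 against W177A (32.7%). These counts are from the fit of all 39 libraries. Fitting only the induced strain and WT, with the block, called 849 genes, and list members were not counted in that fit.

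Genes that act before the divisions moved in both directions. Of 21 regulators of meiotic entry, 5 were called higher and 6 lower, with a median log2 of 0.00. The share called, 52.4%, was near the 48.9% over all genes, and log2 values ran from -1.24 to 0.98. Without the block 3 were higher, as without Pho92_delete replicate 2 and without CUP1_Pho92_WT replicate 1 or 2. IME1, the inducer of meiosis, had 3343, 4336 and 3267 CPM in the induced and 3670, 3523 and 3626 CPM in the deletion libraries, which overlap (log2 0.00, SE 0.23, limma adjusted p = 0.987). IME2, the kinase gene under Ime1, had 5932, 6566 and 4349 CPM against 4126, 2168 and 2490 CPM. These did not overlap, with a log2 difference of 0.98 (limma adjusted p = 0.0174). The call was lost without Pho92_delete replicate 2 (limma adjusted p = 0.126) and without CUP1_Pho92_WT replicate 2 (0.0639).

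RME1 (YGR044C), which represses IME1 in haploid cells, showed the greatest fall among the entry regulators. It had 10.7, 10.5 and 11.6 CPM in the induced libraries and 27.3, 25.6 and 24.9 CPM in the deletion libraries, a log2 of -1.24 (SE 0.16, limma adjusted p = 1e-06). Of the same list, genes of the Rim101 pathway, which relays alkaline pH, did not move as 1 group: 4 fell, 1 rose and 1 was not called. RIM9 fell by 0.85, RIM20 by 0.66, RIM101 by 0.48 and RIM21 by 0.37 on the log2 scale (limma adjusted p of 0.00415, 5.57e-07, 3.04e-05 and 0.00133). RIM13, the protease of the pathway, rose by 0.38 (limma adjusted p = 0.0256), and RIM8 had a log2 of 0.03 (0.898). RIM20 and RIM101 were below WT as well (log2 -0.30 and -0.32, limma adjusted p = 0.0414 and 0.0223). RME1 was also lower than in W177A, by a log2 of -1.20 (limma adjusted p = 2.76e-06), and was not called against WT (log2 -0.45, limma adjusted p = 0.138).

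Of the m6A writer genes, 2 of 6 were called higher. SLZ1 rose by a log2 of 1.01 and KAR4 by 0.63 (limma adjusted p = 0.0075 and 0.000104), and the call of SLZ1 was lost without Pho92_delete replicate 2 (0.0658). IME4 differed by 0.39 and MUM2 by 0.25, and neither was called (limma adjusted p = 0.129 and 0.342). IME4 overlaps an annotated gene on the opposite strand by 1803 bases, and the use of strand in counting is not given in the sources used here.

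Among 44 genes of recombination and synapsis, 5 were called higher and 4 lower, with a median log2 of 0.16. The share called, 20.5%, was below the 48.9% over all genes. RAD52 (YML032C), a mediator of homologous recombination, had 532, 677 and 545 CPM in the induced libraries and 391, 281 and 276 CPM in the deletion libraries. They did not overlap, and the log2 was 0.90 (SE 0.17) with a limma adjusted p of 8.39e-05. NAM8, which promotes splicing of meiotic transcripts, rose by 0.75. RAD55, a recombination gene, fell by 0.87 and RDH54, a translocase, by 0.76 on the log2 scale. The meiosis-specific SPO11, HOP1, ZIP1 and REC8 had log2 values of 0.47, -0.49, 0.82 and -0.34 and were not called (limma adjusted p of 0.343, 0.188, 0.0629 and 0.353), ZIP1 passing the threshold without Pho92_delete replicate 1 (log2 1.05, 0.0368). Searched on both strands, the core GCCGCC of URS1, the site of Ume6, was found in 40.9% of the promoters of this list and in 5.18% of all promoters.

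The mitotic kleisin gene and several other cohesin and replication genes were lower with the induced copy. MCD1 (YDL003W), the mitotic kleisin whose place Rec8 takes in meiosis, had 5.93, 6.02 and 8.64 CPM in the induced libraries and 23.4, 28.8 and 29.2 CPM in the deletion libraries. WT had 7.02, 5.56 and 8.07 CPM and W177A 29.3, 27.8 and 30 CPM, so the libraries fell into a low and a high set without overlap. The log2 was -1.98 against the deletion strain (SE 0.16, limma adjusted p = 4.59e-10) and -2.09 against W177A (limma adjusted p = 3.1e-10). Of 13 cohesin genes, 6 were called lower and 3 higher, with a median log2 of -0.34. ECO1, the cohesin acetyltransferase, SMC1, a ring subunit, and PDS5, a ring regulator, fell by 0.83, 0.73 and 0.61 on the log2 scale, and SMC1 and PDS5 were also lower than in WT (log2 -0.52 and -0.49, limma adjusted p = 0.0147 and 0.0354). The members that rose were SGO1, which protects centromeric cohesin, by 1.82, PDS1, the securin, by 1.30, and ESP1, the separase, by 0.51, with overlapping libraries (limma adjusted p = 0.031). ESP1 lost the call without the block (0.107), without CUP1_Pho92_WT replicate 1 (0.317) or 2 (0.0766), and without Pho92_delete replicate 1 (0.0818) or 2 (0.142).

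Of 52 DNA replication genes, 19 were called lower and 10 higher, with a median log2 of -0.11. The number higher was 5 without the block and without CUP1_Pho92_WT replicate 2, and 6 without Pho92_delete replicate 2. Fitting only these 6 libraries left 8 lower and 3 higher. CDC9 (YDL164C), the DNA ligase, had 48.9, 52.5 and 57.7 CPM in the induced and 104, 124 and 124 CPM in the deletion libraries, a log2 of -1.14 (SE 0.08, limma adjusted p = 2.51e-11). POL30, the sliding clamp, fell by 1.37 and RAD27, the flap endonuclease, by 1.29 on the log2 scale. In contrast ORC3 and ORC1, subunits of the origin recognition complex, rose by 1.53 and 1.33 (limma adjusted p = 0.0003 and 1.12e-05). Of 11 histone genes 4 fell and 2 rose (2 and 1 without Pho92_delete replicate 2, and 2 lower without CUP1_Pho92_WT replicate 2), the greatest fall being that of HTA2, from 139, 203 and 141 to 39.1, 31.2 and 70 CPM (log2 -1.84, limma adjusted p = 3.42e-06). HTA2 has a near-identical copy, and how reads shared between copies were counted is not stated.

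**Figure D2:**
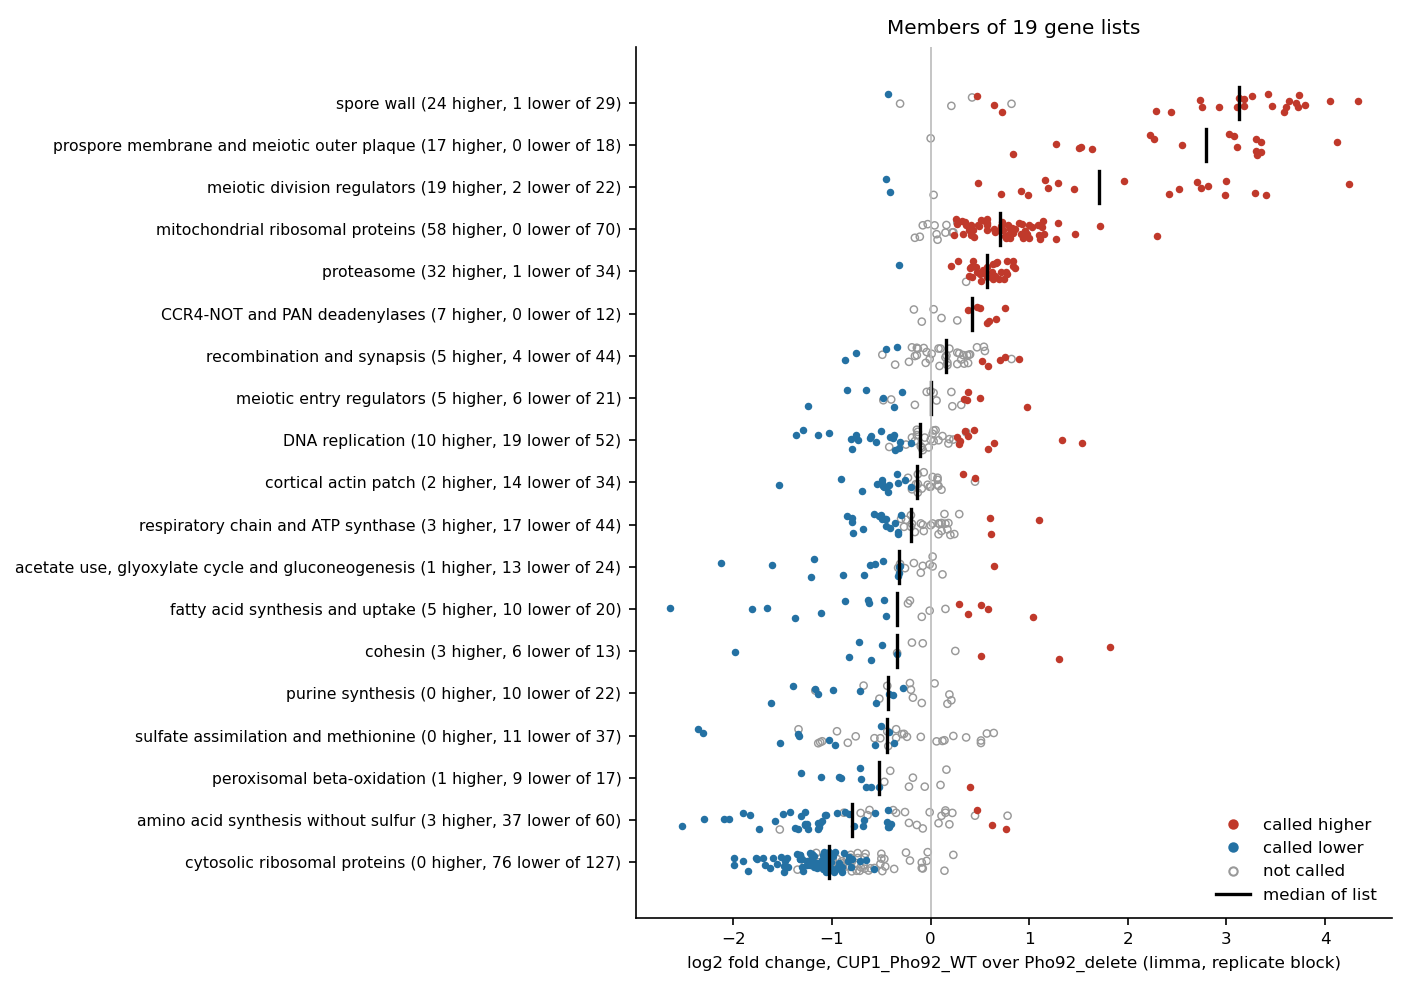
Log2 fold change of the induced over the deletion strain for every tested member of 19 gene lists, with called members filled and the median of each list as a bar. Labels give the number called higher and lower of those tested. Spore wall, prospore membrane and division genes lie to the right, mitochondrial ribosomal and proteasome genes form narrow groups mostly above 0, and cytosolic ribosomal protein genes lie almost wholly below 0.

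Genes for the mitochondrial ribosome were raised as a group, and above the level of WT. Of 70 tested, 58 were called higher and none lower, with a median log2 of 0.70, and without Pho92_delete replicate 2 the count was 54. Fitting only these 6 libraries left 36. The mean log2 level of the list over the mean of the deletion strain was 0.77, 0.58 and 0.65 in the induced libraries, 0.07, -0.08 and 0.01 in the deletion libraries, 0.29, 0.20 and 0.17 in WT and 0.25, 0.24 and 0.21 in W177A. The induced libraries were thus the highest in all 3 replicate numbers. Of the 125 genes called higher in the induced strain than in WT, 36 (28.8%) were members of this list, and 41 of the 70 were higher than in W177A.

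Some subunits showed a difference with little spread between replicates. MRPL35 (YDR322W) had 59.3, 57.1 and 60 CPM in the induced libraries, 29, 32.3 and 33.2 CPM in the deletion libraries and 36.2, 31.5 and 34.9 CPM in WT. The deletion and WT libraries overlapped. Its log2 was 0.90 against the deletion strain and 0.78 against WT (limma adjusted p = 1.27e-08 and 3.42e-06). MRPS5 (YBR251W), of the small subunit, had 44.5, 46.5 and 52.7 CPM, 27.1, 26.2 and 30.3 CPM, and 25.5, 27.4 and 30.8 CPM in the same order, a log2 of 0.78 in both comparisons, again with deletion and WT overlapping. The greatest rises over the deletion strain were those of MRPS17 (2.30), MRPL37 (1.72), MRP20 (1.46), MRPL20 (1.29) and MRPL31 (1.27). Of these, MRPL20 was also called against WT (log2 0.71, limma adjusted p = 0.00861). MRPL35 and MRPS5 were chosen after their values were seen, as were MAM33 (YIL070C), a mitochondrial matrix protein, and MTF1 (YMR228W), the specificity factor of mitochondrial RNA polymerase. MAM33 had 47.6, 47.7 and 62.3 CPM in the induced libraries, 24, 21.7 and 28.1 CPM in the deletion libraries and 20.5, 20.5 and 29.2 CPM in WT, and MTF1 rose over WT by a log2 of 0.93 (limma adjusted p = 4.15e-05).

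Respiratory chain genes were called lower more often than higher, at a share of called genes (45.5%) near that over all genes. Of 44 genes of the chain and of the ATP synthase, 17 were called lower and 3 higher, with a median log2 of -0.20, and fitting only these 6 libraries left 5 lower. The mean log2 level of the list overlapped between the strains, at -0.22, -0.18 and -0.06 in the induced and 0.14, -0.15 and 0.01 in the deletion libraries. COX8 (YLR395C), a subunit of cytochrome c oxidase, had 22.7, 22.5 and 28.3 CPM in the induced and 45.1, 39.7 and 42.3 CPM in the deletion libraries, a log2 of -0.79 (SE 0.09, limma adjusted p = 1.47e-07). QCR2, of the bc1 complex, fell by 0.85 and NDE2, an external NADH dehydrogenase, by 0.80 on the log2 scale. Against WT 4 of the list were lower and none higher, and against W177A 22 were lower and 1 higher. The rises were those of COX5B, a subunit isoform of cytochrome c oxidase, and of HAP4 and HAP3, subunits of the activator of respiratory genes (log2 1.10, 0.61 and 0.60).

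Proteasome genes rose by a narrow margin. Of 34 tested, 32 were called higher and 1 lower, with a median log2 of 0.57, and 24 were higher without Pho92_delete replicate 2. Fitting only these 6 libraries left 8 higher. The median log2 of the list was 0.14, 0.83 and 0.73 in the same-numbered pairs 1 to 3. Its mean log2 level over the mean of the deletion strain was 0.54, 0.60 and 0.52 in the induced libraries. In the deletion libraries it was 0.38, -0.18 and -0.20, so Pho92_delete replicate 1 lay nearest the induced strain. PRE2 (YPR103W), a catalytic subunit, had 737, 686 and 685 CPM in the induced and 506, 368 and 315 CPM in the deletion libraries, a log2 of 0.86 (SE 0.13, limma adjusted p = 1.1e-05). RPN12, of the regulatory particle, and PRE4, of the core, rose by 0.84 and 0.83. None of the list was called against WT, and 3 were higher than in W177A.

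The deadenylases that Pho92 has been linked to were examined as a list of 12 CCR4-NOT and PAN genes. Of these 7 were called higher and none lower, with a median log2 of 0.42, while fitting only these 6 libraries left 2. CAF40 (YNL288W), a subunit of CCR4-NOT, had 144, 150 and 137 CPM in the induced, 94.1, 80.6 and 82 CPM in the deletion and 120, 110 and 103 CPM in the WT libraries. It rose by a log2 of 0.75 over the deletion strain and of 0.37 over WT (limma adjusted p = 9.21e-07 and 0.0267). CDC36 and the poly(A)-binding protein gene PAB1 rose by 0.66 and 0.59, PAB1 with overlapping libraries. The catalytic subunit gene CCR4 had a log2 of 0.03, the scaffold gene CDC39 one of 0.27, and neither was called (limma adjusted p = 0.858 and 0.232). The second nuclease, POP2, had a log2 of 0.38 (limma adjusted p = 0.0378, and 0.203 without the block) and lost its call without replicate 1 or 2 of either strain. Among 23 genes of decapping and 5′ to 3′ decay, 6 rose and 5 fell (47.8% called, near the 48.9% over all genes). EDC2, an enhancer of decapping, rose from 116, 57.7 and 56.3 to 404, 386 and 179 CPM (log2 2.07, limma adjusted p = 1.42e-05), and DCS1 and DCS2, the scavenger decapping enzyme and its inhibitor-like paralog, fell by 0.74 and 0.81 on the log2 scale.

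Genes of acetate and fatty acid use were repressed, in part below the level of WT. Of 24 genes of acetate use, the glyoxylate cycle and gluconeogenesis, 13 were called lower and 1 higher, with a median log2 of -0.32, and fitting only these 6 libraries left 6 lower and none higher. The mean log2 level of the list over the mean of the deletion strain was -0.49, -0.43 and -0.46 in the induced libraries, -0.14, -0.11 and -0.08 in WT and -0.08, 0.04 and -0.06 in W177A. CIT3 (YPR001W), the mitochondrial methylcitrate synthase, had 1987, 1951 and 1770 CPM in the induced libraries, 5053, 6018 and 6401 CPM in the deletion libraries and 4295, 3993 and 4378 CPM in WT. The 3 strains did not overlap, and the log2 was -1.61 against the deletion strain and -1.15 against WT (limma adjusted p = 6.18e-10 and 3.42e-06). PDH1 (YPR002W), which acts in the same propionate pathway and was chosen after its values were seen, had 3296, 3442 and 3211 CPM, 7296, 8216 and 9116 CPM, and 6907, 6730 and 7501 CPM in the same order. IDP3, the peroxisomal isocitrate dehydrogenase, fell by 1.21 on the log2 scale and was below WT too (log2 -0.82, limma adjusted p = 5.84e-05).

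ACS2 (YLR153C), the nuclear and cytosolic acetyl-CoA synthetase, fell the most in this list, and its induced and WT libraries overlapped. It had 224, 206 and 314 CPM in the induced libraries, 791, 1435 and 1081 CPM in the deletion libraries, 231, 208 and 310 CPM in WT and 650, 705 and 822 CPM in W177A. The log2 was -2.13 against the deletion strain (SE 0.22, limma adjusted p = 3.24e-08) and -0.01 against WT (limma adjusted p = 0.995). FBP1, of gluconeogenesis, fell by 0.89 on the log2 scale. PCK1, its other committed enzyme, was the member called higher (log2 0.64, limma adjusted p = 0.0243), and lost the call without Pho92_delete replicate 2 (log2 0.40, limma adjusted p = 0.209), without CUP1_Pho92_WT replicate 2 (0.0742) and without CUP1_Pho92_WT replicate 3 (0.0571). In a separate list of 19 glycolysis and fermentation genes, 6 were called lower and none higher. The share called, 31.6%, was below the 48.9% over all genes, and 1 was lower without replicate 2 of either strain. ADH2, the alcohol dehydrogenase that oxidises ethanol, had 1943, 1459 and 2087 CPM against 6961, 5330 and 7905 CPM and 4021, 3758 and 4705 CPM in WT. Its log2 was -1.88 against the deletion strain and -1.20 against WT (limma adjusted p = 6.29e-08 and 0.000516).

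Of 17 genes of peroxisomal beta-oxidation and the carnitine shuttle, 9 were called lower and 1 higher, with a median log2 of -0.52, and 5 were lower than in WT. The member called higher lost its call without replicate 2 of either strain. YAT2 (YER024W), a carnitine acetyltransferase, had 1983, 2467 and 1927 CPM in the induced, 3947, 4753 and 5035 CPM in the deletion and 3296, 4018 and 3810 CPM in the WT libraries. Its log2 was -1.11 against the deletion strain and -0.81 against WT (limma adjusted p = 3.44e-08 and 5.84e-05). YAT1, its mitochondrial relative, fell by 1.31, PIP2, the oleate-responsive activator, by 0.93, and POT1, the thiolase, by 0.72 on the log2 scale.

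Fatty acid synthesis and uptake held the steepest of these falls. FAT3 (YKL187C), needed for fatty acid uptake, had 92.1, 113 and 107 CPM in the induced libraries, 491, 578 and 962 CPM in the deletion libraries and 334, 340 and 414 CPM in WT. The log2 was -2.64 against the deletion strain (SE 0.23, limma adjusted p = 1.9e-09), -1.80 against WT and -1.57 against W177A (limma adjusted p = 2.04e-05 and 8.14e-06). Of 20 genes in the list 10 were called lower and 5 higher, with a median log2 of -0.34. Without the block 3 were higher, and without Pho92_delete replicate 2 the counts were 6 and 3. Leaving out CUP1_Pho92_WT replicate 1 or Pho92_delete replicate 3 also left 3 higher. FAS1 and FAS2, the subunits of fatty acid synthase, fell by 1.81 and 1.38, and ACC1, the acetyl-CoA carboxylase, by 1.66 on the log2 scale. FAS1 had 766, 666 and 874 CPM against 2081, 3206 and 2892 CPM. None of these 3 was called against WT, and all were lower than in W177A (log2 -1.22, -0.65 and -0.88, limma adjusted p of 0.000222, 0.0199 and 0.00251). Of 27 sterol synthesis genes 10 fell and 2 rose (1 rose with any of the 6 libraries left out, and 5 fell without CUP1_Pho92_WT replicate 2). The share called, 44.4%, was below the 48.9% over all genes. The greatest fall was that of ERG20, farnesyl diphosphate synthase, from 92.8, 135 and 126 to 28.6, 25 and 50.3 CPM (log2 -1.81, limma adjusted p = 8.71e-08).

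**Figure D3:**
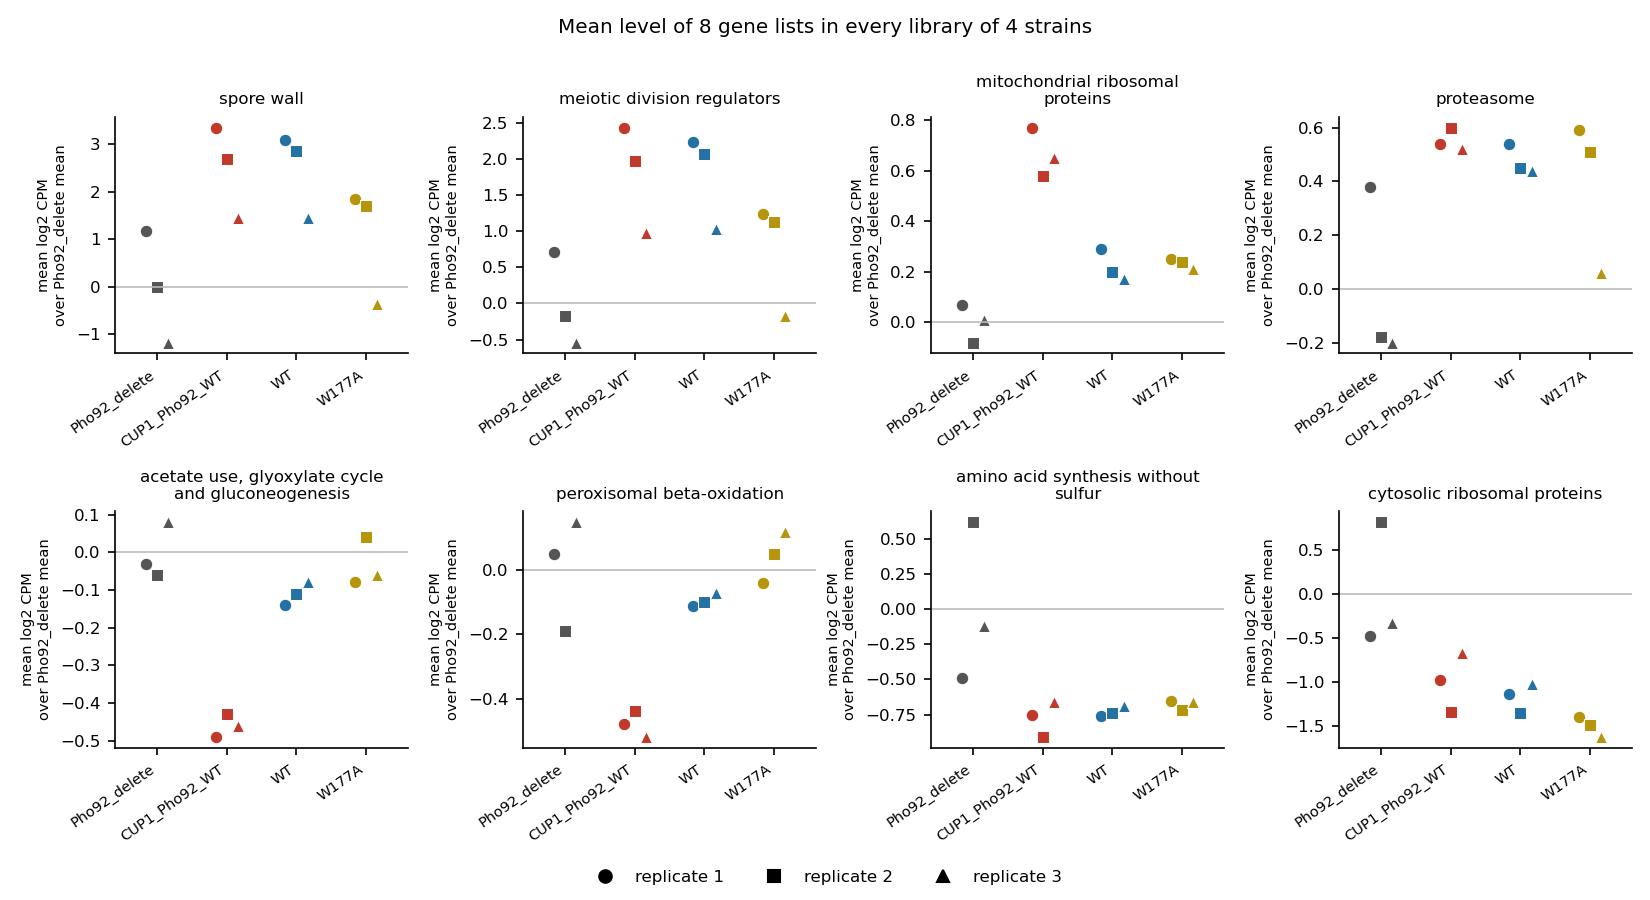
Mean log2 CPM of 8 gene lists in each library, over the mean of the 3 Pho92_delete libraries (line at 0), with marker shape for replicate number. Mitochondrial ribosomal protein genes are highest and acetate and beta-oxidation genes lowest in CUP1_Pho92_WT, and for amino acid synthesis and cytosolic ribosomal proteins Pho92_delete replicate 2 lies far above the other libraries.

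Amino acid synthesis genes were lower as well, and the count called depended on which libraries were fitted. Of 60 genes of amino acid synthesis outside the sulfur pathway, 37 were called lower and 3 higher, with a median log2 of -0.80. The number lower was 15 without Pho92_delete replicate 2 (median -0.42), 23 without CUP1_Pho92_WT replicate 2, and 17 when only these 6 libraries were fitted. The mean log2 level of the list was -0.49, 0.62 and -0.12 in the deletion libraries and -0.75, -0.91 and -0.66 in the induced libraries. It was -0.76, -0.74 and -0.69 in WT and -0.65, -0.72 and -0.66 in W177A. Of the 60 genes, 3 were called higher and 4 lower than in W177A. LEU4 (YNL104C), the isopropylmalate synthase, had 343, 290 and 365 CPM in the induced and 1038, 2489 and 1700 CPM in the deletion libraries, a log2 difference of -2.30 (limma adjusted p = 7.81e-07). It was also lower than in W177A (log2 -1.34, limma adjusted p = 0.001). HIS4, of histidine synthesis, had 66.5, 54.6 and 85.9 CPM against 114, 790 and 274 CPM. Its log2 of -2.10 (limma adjusted p = 0.00357) became -1.39 without Pho92_delete replicate 2 (limma adjusted p = 0.0623) and -2.75 without Pho92_delete replicate 1. GCN4, the activator of these genes, had a log2 of -0.42 (limma adjusted p = 0.0279, and 0.0947 without the block) and lost its call without CUP1_Pho92_WT replicate 1 or 2 and without Pho92_delete replicate 2 or 3.

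In the list of 37 genes of sulfate assimilation and methionine, 11 were called lower and none higher, with a median log2 of -0.44, with 2 lower without Pho92_delete replicate 2. The share called, 29.7%, was below the 48.9% over all genes, of which 25.0% were called lower. Without CUP1_Pho92_WT replicate 1 and replicate 2 the counts were 7 and 6. MET17 (YLR303W), the sulfhydrylase, had 35.9, 23.2 and 45.7 CPM in the induced and 82.6, 478 and 133 CPM in the deletion libraries, a log2 of -2.36 that lost its call without Pho92_delete replicate 2 (log2 -1.54, limma adjusted p = 0.122). HOM3, the aspartate kinase, did the same (log2 -2.31, -1.49 with limma adjusted p = 0.103 without that library, and -3.03 without Pho92_delete replicate 1). MET4, the activator of the pathway, was not called (log2 0.51, limma adjusted p = 0.167), except without CUP1_Pho92_WT replicate 3 (log2 0.79, 0.0472). The E-box CACGTG, the site of Cbf1, was found in 29.7% of the promoters of this list and in 3.55% of all promoters. Of 22 purine synthesis genes 10 were called lower and none higher (45.5% called, near the share over all genes). Without Pho92_delete replicate 2, 5 were lower and 1 higher.

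The remaining great falls were of vitamin genes and of genes with little annotation. BIO5 (YNR056C), a carrier for biotin precursors, had 2.4, 2.74 and 3.39 CPM in the induced and 7.62, 68.9 and 17.6 CPM in the deletion libraries. Its log2 of -2.86 (SE 0.39, limma adjusted p = 1.61e-06) was -2.05 without Pho92_delete replicate 2 and -3.55 without Pho92_delete replicate 1, called in both. VHT1, the biotin transporter, fell by 1.91 and by 1.29 without Pho92_delete replicate 2 on the log2 scale. SNO1, of vitamin B6 metabolism, ARO5 (YGL117W), YEL067C and a feature listed as Unit1923 fell by 2.13, 2.19, 2.28 and 2.53 on the log2 scale (limma adjusted p of 6.22e-05, 0.000171, 0.000126 and 0.000219). YEL067C overlaps a gene on the opposite strand by 56 bases.

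Cytosolic ribosomal protein genes were lower in the induced strain in 76 of 127 cases and higher in none, with a median log2 of -1.03. Without Pho92_delete replicate 2 the count was 9 and the median -0.58, and without CUP1_Pho92_WT replicates 1 and 2 the counts were 28 and 24. Fitting only these 6 libraries left 19. The mean log2 level of the list was -0.48, 0.81 and -0.33 in the deletion libraries and -0.97, -1.34 and -0.67 in the induced libraries, so the groups did not overlap and replicate 2 was highest in one and lowest in the other. RPL8B (YLL045C) had 35, 25.8 and 49 CPM against 89.9, 287 and 108 CPM (log2 -1.99, SE 0.41, limma adjusted p = 0.000265). Most genes of this list have a near-identical copy, so that counts of single genes are uncertain. Ribosome biogenesis genes were lower in 28 of 74 cases and higher in none (11 lower and 2 higher without Pho92_delete replicate 2, and 18 lower without CUP1_Pho92_WT replicate 1 or 2). The share called, 37.8%, was below the 48.9% over all genes, of which 25.0% were called lower. The mean log2 level of this list was -0.64, -0.48 and -0.17 in the induced libraries. In the deletion libraries it was -0.34, 0.51 and -0.17, so the strains overlapped. DBP10 (YDL031W), a nucleolar helicase, had 24.2, 21.9 and 24.2 CPM against 46.6, 62.8 and 54.9 CPM, a log2 of -1.21 (SE 0.13, limma adjusted p = 4.87e-08). Translation factor genes were not lower as a group, with 5 higher and 5 lower of 31, a median log2 of -0.09, and 8 higher and 2 lower without Pho92_delete replicate 2 (median 0.02). Against WT no gene of the ribosomal protein or ribosome biogenesis lists was called. In W177A the mean log2 level of the ribosomal protein list was -1.39, -1.48 and -1.62, and 5 genes of that list were called higher in the induced strain than in W177A.

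**Figure D4:**
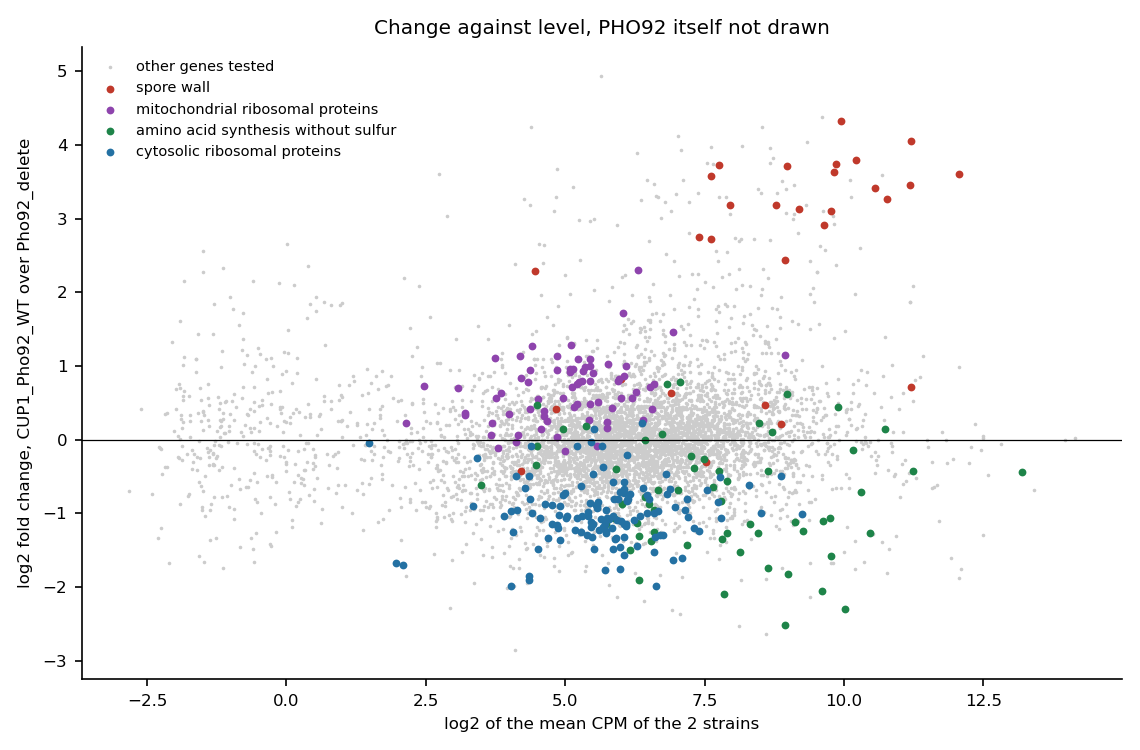
Log2 fold change of the induced over the deletion strain against the log2 of the mean CPM of both strains, for each gene tested except PHO92. Most spore wall and mitochondrial ribosomal protein genes lie above 0 and most amino acid synthesis and cytosolic ribosomal protein genes below 0.

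Some genes of endocytosis and of the cell surface were lower in the induced strain. ABP1 (YCR088W), an actin-binding protein of the cortical patch, had 56.3, 64.1 and 74.1 CPM in the induced libraries, 176, 184 and 204 CPM in the deletion libraries and 90.4, 98.6 and 109 CPM in WT. The 3 strains did not overlap, with a log2 of -1.54 against the deletion strain (SE 0.09, limma adjusted p = 1.87e-12), -0.62 against WT and -1.54 against W177A (limma adjusted p = 9.54e-05 and 1.84e-12). Of 34 actin patch genes 14 were called lower and 2 higher, with a median log2 of -0.14, and 18 were not called. The share called, 47.1%, was near the 48.9% over all genes. The number lower was 9 without CUP1_Pho92_WT replicate 1 and 4 when only these 6 libraries were fitted. ENT1, an epsin, fell by 0.91 and SLA2, an adaptor, by 0.70 on the log2 scale. TIP1, a cell wall mannoprotein, had 167, 136 and 192 CPM against 569, 526 and 740 CPM, and 387, 352 and 396 CPM in WT, a log2 of -1.89 against the deletion strain and -1.21 against WT (limma adjusted p = 2.61e-09 and 4.15e-05). Of 24 cell wall genes 10 fell and 3 rose, the greatest rise being that of CWP1 (log2 2.60, limma adjusted p = 8.7e-05).

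Copper and iron genes were read because copper drives the transgene. The metallothionein gene CUP1-1 was not called, with 1154, 1404 and 1581 CPM in the induced and 2216, 1406 and 1440 CPM in the deletion libraries (log2 -0.27, limma adjusted p = 0.164, and 0.0295 without CUP1_Pho92_WT replicate 3), and it shares bases with 2 other annotated genes. A second metallothionein gene, CUP1-2, was not among the 13 copper genes tested. How reads shared between copies were counted is not stated. CUP2, the copper-sensing activator, fell by 0.47 on the log2 scale. CTR1, the plasma membrane copper transporter, rose from 42.2, 27.8 and 32.6 to 131, 92.9 and 67 CPM (log2 1.47, limma adjusted p = 1.35e-06), and CTR2, the vacuolar one, fell by 1.05. In iron uptake 10 of 27 genes fell and 5 rose, with 4 falls without Pho92_delete replicate 2, 6 without CUP1_Pho92_WT replicate 2, and 3 rises without CUP1_Pho92_WT replicate 1. The vacuolar oxidase FET5 and its permease FTH1 rose by log2 values of 1.47 and 1.38. FET3, the oxidase at the cell surface, had 245, 105 and 280 CPM against 427, 1289 and 486 CPM, and its log2 of -1.74 (limma adjusted p = 0.0065) was -1.20 without Pho92_delete replicate 2 (limma adjusted p = 0.0834) and -1.26 without CUP1_Pho92_WT replicate 2 (0.0704).

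Haploid-specific genes, which a diploid keeps low, were called higher in 11 of 19 cases and lower in 5, with a median log2 of 0.51, and higher in 6 without Pho92_delete replicate 2. Of the 7 haploid markers measured, 5 were called higher and 1 lower, and their part in the other results was not tested. STE18, the gamma subunit of the pheromone-response G protein, had 78.5, 28.1 and 7.59 CPM in the induced and 5.13, 3.69 and 1.06 CPM in the deletion libraries (log2 3.18, SE 0.62, limma adjusted p = 0.000147), and STE4, the beta subunit, rose by 1.55. FUS3, the MAP kinase of that pathway, fell by 0.80 and GPA1, its alpha subunit, by 0.60 on the log2 scale. Autophagy genes were called higher in 13 of 37 cases and lower in 6 (3 without Pho92_delete replicate 2). Their share called, 51.4%, was near the 48.9% over all genes. ATG18, a phosphoinositide-binding protein, rose from 94, 77.3 and 83.9 to 181, 197 and 144 CPM (log2 1.02, limma adjusted p = 4.05e-07), and ATG36, the receptor for peroxisomes, fell by 0.90. Sugar and storage genes divided likewise, with called shares below the 48.9% over all genes. Of 20 sugar transporter and hexose kinase genes 4 rose and 4 fell (40% called). Of 21 glycogen and trehalose genes 3 rose and 6 fell (42.9% called). Without Pho92_delete replicate 2, 2 of the sugar genes fell and 1 of the storage genes rose. SGA1, the glucoamylase of sporulation, rose by a log2 of 3.19 (2.52 without CUP1_Pho92_WT replicate 1) and EMI2, a hexokinase relative, by 2.58. VPS73, of the sugar transporter family, fell by 1.87 and GPH1, the glycogen phosphorylase, by 1.07 on the log2 scale. VPS73 had 48.7, 50.8 and 78.7 CPM in the induced, 269, 171 and 205 CPM in the deletion and 52.6, 46.3 and 62.7 CPM in the WT libraries.

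Fitting only the 6 libraries, with the block, also lowered counts of other lists by more than 1.5 times, not all of them given here. It left 3 sulfur, 3 purine and 8 ribosome biogenesis genes lower, and 4 sterol and 6 cell wall genes lower. Of fatty acid genes it left 6 lower and 2 higher, of iron genes 3 lower and 3 higher, of haploid-specific genes 5 higher, and of autophagy genes 5 higher and 2 lower. Of meiotic entry regulators it left 3 lower and none higher, of recombination genes 3 higher and 2 lower, of histone genes 1 lower and none higher, and of decay genes 2 in each direction. Of glycolysis and fermentation genes it left 2 lower and 1 higher, and of translation factor genes 1 in each direction. Of glycogen and trehalose genes 1 higher and 4 lower were left.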

How the data were processed

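Transcripts were measured in 39 libraries, of which 6 form the comparison, 3 of WT and 3 of CUP1_Pho92_W177A serve as references, and all enter the fit. The authors deposited 1 table whose columns hold, below 46 lines of headings and annotation, whole-number counts for 6186 features. Because other values share these columns, no count model was used. The submitters' processing notes name STAR 2.7.10a, RSEM 1.3.1 and DESeq2 1.48.1 without their roles. Neither the build nor the annotation, nor whether counting used strand, is given in the sources used here. IDs were matched to RefSeq R64 locus tags (5630 of 6186; 43 others start with Unit and 513 kept their ID).

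From the counts, log2 CPM values were computed with TMM scaling written for this work and a prior count of 2, which understates fold changes of low genes. Features reaching the rate of 10 counts in the median library in 3 libraries, with 15 counts in total, were tested (5840). limma 3.58.1 in R 4.3.3 fitted 13 strain coefficients and the replicate number with a variance trend, and adjusted p by Benjamini-Hochberg over all genes tested. CPM per library is per 1000000 scaled counts. The code was tested on simulated counts. The block was used because the comparison is defined as paired.

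Named genes are PHO92, TRP1 and the neighbours of PHO92, the 12 greatest rises and falls among called genes that averaged 50 counts or more in the strain where they were higher and moved 1 way in all 3 pairs, up to 5 called members per direction of each list described, and a fixed set of regulators. Members and lists were chosen with earlier results of these data known. Some genes the rule names are not reported here. Promoters are the 300 bases before the annotated start. Alternatives were RLE size factors, no low-count filter, no block, a prior count of 0.5, limma-voom weights, fits of only the strains compared, and leaving out each library.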

Additional observations from a re-analysis of the deposited data

How the results depend on the processing

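The number of genes called for the induced against the deletion strain was 2332 without the replicate block and lay between 2115 (without Pho92_delete replicate 2) and 2859 (without CUP1_Pho92_WT replicate 3) when 1 library was left out. RLE size factors, no low-count filter, a prior count of 0.5 and limma-voom weights gave 2841, 2847, 2848 and 2831. In the fit of only these 6 libraries the count was 1187 with the block, 622 higher and 565 lower, and 972 without it, split into 448 higher and 524 lower. That last fit had 438 genes past a 2-fold change, against 721. Against WT, 198 genes became 97 without the block, 849 in the fit of only these strains with the block, and 88 to 154 with 1 library left out. Against W177A, 1907 became 1197 without the block. The cause of these moves was not tested. No called log2 fold change of a named gene changed sign under the alternatives run. The balance of calls did turn, from 1393 higher and 1461 lower to 1477 and 1364 under RLE size factors, and the median of the translation factor list went from -0.09 to 0.02 without Pho92_delete replicate 2. Deviations of same-numbered libraries from their strain means correlated at 0.412, -0.272 and 0.422, so the numbers were not shown to pair them, and the block follows from the definition of the comparison. Of 315 named genes, calls were lost for 38 without the block, 107 in the fit of 6 libraries with the block, 152 in that fit without the block, and 69 without Pho92_delete replicate 2. The count of genes whose libraries do not overlap was 2561 under RLE size factors. The block, the prior count and limma-voom weights do not alter it.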
